A study of Rattus norvegicus with 4 samples.

Results

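Collagens, laminins and integrins are the genes whose rat symbols begin with Col, Lam or Itg and name a collagen chain, a laminin chain or an integrin. Integrin symbols were taken where a number or v follows Itga or Itgb, and Itgam, Itgax, Itgal and Itgb2 were left out. On the arrays analysed here, 46 of the 16568 genes with a named probe fit this rule, and they were read by 61 probes. They comprised 23 collagen genes, 7 laminin genes, 13 integrin subunit genes and 3 genes whose symbols start like those of integrins but which encode other proteins. The latter are Itgb1bp1, which encodes ICAP1, a protein that binds the tail of the β1 integrin subunit, Itgb1bp2, which encodes melusin, a muscle protein, and Itgb3bp, which encodes a centromere protein. These 3 genes were counted as members and are given apart from the subunits.

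The RNA came from rat oligodendrocyte precursor cells (OPCs) isolated from the cortex of Sprague-Dawley pups at postnatal day 2, with animals pooled, expanded with bFGF and PDGF and then kept in differentiating medium. In the siGPR17 group, a pool of siRNAs at 50 nM was transfected to silence Gpr17, a G protein-coupled receptor of differentiating OPCs. The siNEG group received a non-targeting siRNA at the same dose with the same lipid reagent. RNA was taken 48 h later, at day 2 of differentiation, and each group had 2 samples (n = 2) on one-colour arrays. No group was left untransfected, and how far each animal contributed to each sample is not stated in the labels, so p-values measure only the spread between these samples.

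Collagens and laminins are secreted chains that assemble into the extracellular matrix, laminins and type IV collagen mainly in basement membranes. Integrins are cell surface receptors made of an α and a β subunit that bind such matrix proteins and pass signals to the cytoskeleton. In oligodendrocytes, laminin receptors that contain the β1 subunit are known to act in survival, process outgrowth and myelination.

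To show the regulatory sequence beside the values, the 250 bases upstream of the annotated start are printed for Itga8, Col6a5 and Itgb1bp1, the members with a listed promoter among those with the smallest p-values, and for Col11a2, a collagen that was higher in both siGPR17 samples. They were chosen after their values were seen, and they are RefSeq sequence of the GRCr8 build, 5′ to 3′ on the gene's own strand. All 4 lie upstream of genes on the minus strand, outside the transcribed part, Itga8 at chr17:80410634-80410883, Col6a5 at chr8:115462845-115463094, Itgb1bp1 at chr6:46564399-46564648 and Col11a2 at chr20:4817649-4817898. Capitals mark the GC box letters GGGCGG or their reverse complement CCGCCC.
Itga8: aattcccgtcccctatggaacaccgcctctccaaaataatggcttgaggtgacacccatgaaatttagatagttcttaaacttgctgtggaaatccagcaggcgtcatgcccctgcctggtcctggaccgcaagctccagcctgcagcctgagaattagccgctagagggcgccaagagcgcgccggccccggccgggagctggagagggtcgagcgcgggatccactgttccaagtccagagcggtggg
Col6a5: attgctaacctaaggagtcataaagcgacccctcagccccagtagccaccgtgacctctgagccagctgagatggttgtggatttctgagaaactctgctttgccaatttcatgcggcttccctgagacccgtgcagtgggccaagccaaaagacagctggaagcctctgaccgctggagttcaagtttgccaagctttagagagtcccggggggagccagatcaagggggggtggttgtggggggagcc
Itgb1bp1: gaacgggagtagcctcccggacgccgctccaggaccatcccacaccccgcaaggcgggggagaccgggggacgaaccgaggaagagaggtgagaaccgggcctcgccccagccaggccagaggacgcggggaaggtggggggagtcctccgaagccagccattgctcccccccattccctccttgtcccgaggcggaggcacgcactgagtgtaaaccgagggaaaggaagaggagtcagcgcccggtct
Col11a2: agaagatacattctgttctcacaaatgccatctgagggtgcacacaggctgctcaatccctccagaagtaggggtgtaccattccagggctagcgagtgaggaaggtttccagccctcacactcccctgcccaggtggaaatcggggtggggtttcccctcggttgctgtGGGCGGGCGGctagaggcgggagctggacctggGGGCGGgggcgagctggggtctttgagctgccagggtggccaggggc
Col11a2 held 3 matches, 2 of them overlapping, and the other 3 promoters held none. Their GC content was 59.6% in Itga8, 56.8% in Col6a5, 68.4% in Itgb1bp1 and 62.8% in Col11a2. Among the 35 members with a listed promoter, 15 (42.9%) held the GC box on either strand, against 32.4% of 27457 genes. The letters TATAAA, searched on both strands, were in 3 of the 35 promoters, against 13.1% of all genes. These matches describe letters only. For Col6a5, 2 transcription starts are listed and the first one in the table was used.

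Signals below are Agilent processed signals scaled so that the 75th percentile of every array is the same. The level of one gene is not set against that of another, because probes differ in how well they hybridise. Across the series, 26997 to 28244 of 45598 probes were well above background on an array, no spot of these probes was saturated, and the arrays correlated with each other at 0.989 to 0.991. The 4 arrays shared 1 slide and 1 scan, and the groups lay in different slide columns, so that slide column and treatment cannot be told apart. Gpr17 itself had signals of 1107 and 1113 in siNEG and of 652 and 639 in siGPR17, a log2 difference of -0.78 ± 0.08 (SE) with an adjusted p of 0.209 in limma, and of 0.0152 with the trend and robust options. Its 2 siGPR17 values lay below both siNEG values.

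Markers of the cell types that could contribute matrix genes were read on the same arrays, as counts of genes and as summed signals, in which the brightest probe of a list weighs most. Of 12 fibroblast and mural cell markers, 8 were not well above background on any array, among them Dcn, Lum, Pdgfrb and Rgs5. The summed signal of the list was 637 and 623 in siNEG and 627 and 638 in siGPR17, but its genes went both ways. Of the 4 tested, Tagln (-0.93 ± 0.18) and Fbln1 (-0.07 ± 0.09) were lower in siGPR17, and Anpep (0.65 ± 0.15) and Acta2 (0.27 ± 0.12) higher. The groups did not overlap for any of the 4, against 52.6% of all probes. Of 10 endothelial markers, 4 were not well above background on any array (Pecam1, Cldn5, Emcn and Tie1), while 5 were on all 4 arrays. The summed endothelial signal was 1240 and 1139 in siNEG and 1715 and 1612 in siGPR17. Of 10 markers each, 9 astrocyte, 9 neuron and 6 microglia genes were well above background on all arrays. The astrocyte sum was 117470 and 132450 in siNEG and 120840 and 122110 in siGPR17, most of it from Aldoc, the neuron sum 25360 and 26801 against 23790 and 23156, and the microglia sum 3739 and 2590 against 2557 and 3006. Gene by gene, 6 of the 9 tested astrocyte markers were lower in siGPR17, with a median log2 difference of -0.22 (-0.09 with spike-in scaling). Of these, 4 had an unadjusted p under 0.05, beside 9.12% of all probes in that direction. Aqp4 and Gfap passed the thresholds with the trend and robust options. Aqp4 had signals of 161 and 169 in siNEG and of 72.9 and 57.1 in siGPR17 (-1.35 ± 0.15), and Gfap 295 and 261 against 168 and 198 (-0.61 ± 0.13). The other 3 astrocyte markers were higher, 1 with an unadjusted p under 0.05 (7.58% of all probes in that direction). That was S100b, with 2256 and 2524 in siNEG and 3338 and 3415 in siGPR17 (0.50 ± 0.10), a fold under 1.5. The neuron markers were lower in 9 of 9 tested genes (median -0.21), but in 7 of 9 with spike-in scaling (median -0.081). The endothelial ones were higher in 4 of 5 (median 0.48). Of the endothelial markers, Kdr passed the thresholds with the trend and robust options. It had signals of 202 and 233 in siNEG and of 354 and 340 in siGPR17 (0.68 ± 0.11). Of 8 tested microglia markers, 7 were lower (median -0.18, but 0.090 without siNEG replicate 1). Of the markers fixed for the labelled cells, all 9 precursor genes with a probe and all 10 oligodendrocyte genes were well above background on every array. The precursor sum was 222490 and 263780 in siNEG and 215110 and 216170 in siGPR17, and the oligodendrocyte sum 440230 and 496060 against 496790 and 510360. Mbp (0.32 ± 0.11) had the largest signal in the oligodendrocyte sum. Gene by gene, 5 oligodendrocyte markers were higher and 5 lower (median -0.057, 0.073 with spike-in scaling). Mog was lower (-0.67 ± 0.12) and passed the thresholds with the trend and robust options and after normexp correction. All 9 precursor markers, Gpr17 among them, were lower (median -0.23). With spike-in scaling 6 were lower and 3 higher (median -0.10). The part of these shifts in the members' values was not tested, and in bulk RNA fewer cells of a type and less RNA per cell cannot be told apart.

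Detection divided the members. In all, 25 genes were well above background on all 4 arrays, 3 on 3 arrays, 6 on 1 array and 12 on none. The test took genes with a probe detected in this way on 2 or more arrays, which left 28 genes, comprising 14 collagens, 3 laminins, 9 integrin subunits and 2 integrin-binding proteins. The genes not well above background on any array included the collagens Col4a4, Col6a2, Col7a1, Col8a1, Col13a1 and Col15a1, the laminin chains Lama1 and Lamb2, and the integrin subunits Itga5, Itgb4 and Itgb6. For these genes the arrays give a bound and no level. All 4 transmembrane and multiplexin collagens with a probe (collagens anchored in the membrane or split to release fragments) were among the genes that were not tested, whereas 7 of 8 fibrillar collagens and all 4 fibril-associated collagens were tested.

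**Figure D1:**
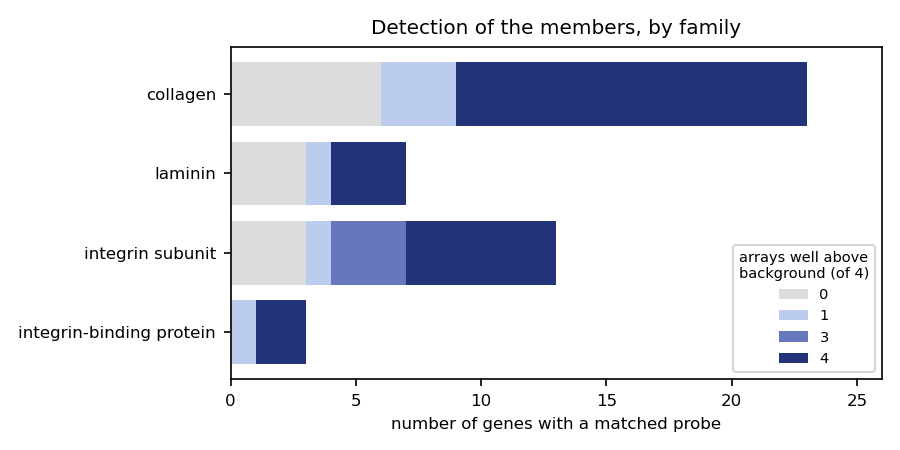
Number of collagen, laminin and integrin genes with a matched probe (x axis), by family, shaded by the number of arrays of 4 on which the gene was well above background. The 14 tested collagens were detected on all 4 arrays, whereas 3 of the 9 tested integrin subunits were detected on 3 arrays.

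No member passed the thresholds of a fold of 1.5 and an adjusted p under 0.07 in limma, and adjusted p-values of the 28 ranged from 0.214 to 0.953. Over all 28016 probes tested, 0.00357% passed. By direction alone, 15 members were higher and 13 lower in siGPR17, with a median log2 difference of 0.044, beside 0.01 over all 11656 genes tested. Spike-in scaling, which moved the median of all probes to 0.14, gave 22 higher and 6 lower with a median of 0.17, and the other scalings gave 15 and 13 as well. An unadjusted p under 0.05 was found for 5 of the 28 (17.9%), beside 16.7% of all probes. These 5 were Col2a1 and Itgb1bp1 on the higher side (7.58% of all probes) and Col6a5, Itga8 and Col14a1 on the lower side (9.12% of all probes). The members' share was thus near that of all probes. With normexp, quantile or spike-in scaling, 4 were higher and 3 lower, beside 19.5%, 18.8% and 16.1% of all probes in either direction. Left-out arrays moved this count from 1 member without siGPR17 replicate 2, when 7.77% of all probes had such a p, and 3 without siGPR17 replicate 1 (7.27% of probes), to 12 without siNEG replicate 1, when 24.4% of all probes had one.

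The signals of both groups did not overlap for 11 of the 28 members (39.3%), against 52.6% of all probes. Of these, 6 were higher in both siGPR17 samples (27.4% of all probes) and 5 were lower (25.2% of all probes). A fold of 1.5 or more was reached by 2 members, against 6.64% of all probes, Itgb7 on the higher side (3.06% of all probes) and Col6a5 on the lower side (3.58%). With limma's trend and robust options, 1.5% of probes passed the thresholds and 1 member did, Col6a5, at an adjusted p of 0.064. After normexp correction, 0.864% of probes passed and 0 members did. With 2 arrays a group, the smallest two-sided p of an exact permutation test is 0.333, and the number of arrays limits the precision of every value.

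**Figure D2:**
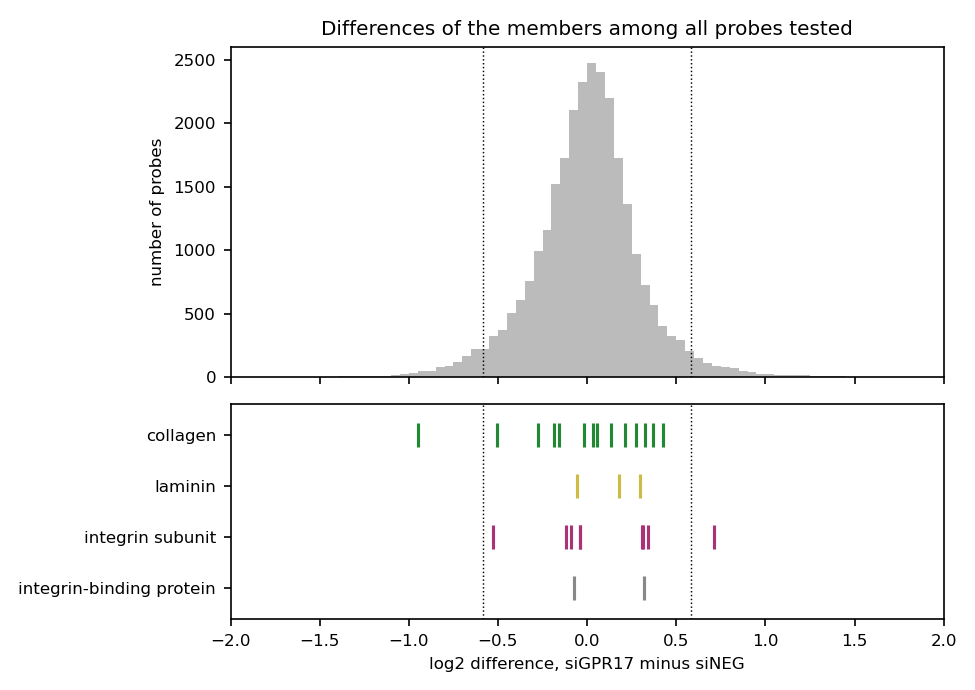
Distribution of log2 differences (siGPR17 minus siNEG, x axis) over all probes tested (grey, y axis number of probes, the central part of the range), with 1 tick for each tested member below. Dotted lines mark a fold of 1.5, and among the members Col6a5 and Itgb7 lie outside them.

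The collagens were divided in direction, with 8 higher and 6 lower and a median of 0.044. The 7 fibrillar collagens, which form the tensile fibres of the matrix, had a median of 0.21, with 5 higher and 2 lower. Col11a2, the α2 chain of fibrillar collagen XI, had signals of 11471 and 12495 in siNEG and of 13870 and 15129 in siGPR17, higher on both arrays. Its log2 difference was 0.27 ± 0.10 (SE, adjusted p = 0.308 in limma), and its second, dimmer probe gave 0.51 ± 0.29 with overlapping groups. Col2a1, the chain of the main cartilage collagen, had signals of 93.1 and 87.4 in siNEG and of 117 and 109 in siGPR17. Both siGPR17 values again lay above both siNEG values, by 0.32 ± 0.10 (adjusted p = 0.26).

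The chains of type I collagen, the abundant collagen of connective tissue, gave overlapping groups. Col1a1 had signals of 34.6 and 20.8 in siNEG and of 46.7 and 27.8 in siGPR17, so that replicate 1 was above replicate 2 in both groups. The log2 difference was 0.43 ± 0.37 with this probe and 1.15 ± 0.71 with its second probe, and it was 0.055 without siGPR17 replicate 1, 0.80 without siGPR17 replicate 2, 0.061 without siNEG replicate 2 and 0.80 without siNEG replicate 1. Col1a2 had signals of 352 and 268 in siNEG and of 347 and 364 in siGPR17, a difference of 0.21 ± 0.16, which became 0.017 when siNEG replicate 2 was left out and 0.41 when replicate 1 was. Col3a1, a fibrillar collagen found beside type I, was well above background only in siGPR17 replicate 1, with signals of 17.4 and 9.44 in siNEG and 38.4 and 16.2 in siGPR17, and was not tested. The remaining fibrillar chains Col5a1, Col5a3 and Col11a1 had differences of 0.13 ± 0.13, -0.017 ± 0.12 and -0.16 ± 0.16, none of them larger than about its SE. A second, dimmer Col5a1 probe had signals of 231 and 268 in siNEG and of 287 and 306 in siGPR17. Its difference was 0.255 ± 0.12, with groups that did not overlap.

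Of the non-fibrillar collagens, the lowest difference belonged to Col6a5, which encodes the α5 chain of the beaded-filament collagen VI. Its signal was 99.9 and 125 in siNEG and 66.9 and 50.2 in siGPR17. The groups were apart by -0.95 ± 0.20 (SE, adjusted p = 0.214 in limma), and by -0.50 with normexp background correction. Col14a1, a fibril-associated collagen, had signals of 25.9 and 28.9 in siNEG and of 20.7 and 17.9 in siGPR17. Its difference of -0.51 ± 0.12 (adjusted p = 0.227) was no longer there after normexp correction, which gave -0.0018.

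Col4a1, the α1 chain of the type IV collagen of basement membranes, was the tested network-forming collagen. It had signals of 1829 and 2088 in siNEG and of 1655 and 1574 in siGPR17, both siGPR17 values being lower. The difference was -0.28 ± 0.11 (adjusted p = 0.32), and it was -0.18 without siNEG replicate 2 and -0.15 with spike-in scaling. Among the fibril-associated collagens, Col9a2 was lower on both siGPR17 arrays (-0.19 ± 0.12), while Col9a1 and Col16a1 had overlapping groups at 0.054 ± 0.11 and 0.035 ± 0.096. A second Col9a1 probe gave -0.044 ± 0.089, also with overlapping groups. Col26a1, with signals of 31.0 and 22.7 in siNEG and 34.0 and 34.5 in siGPR17, had a difference of 0.37 ± 0.18, which ran from 0.14 when siNEG replicate 2 was left out to 0.59 when replicate 1 was.

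**Figure D3:**
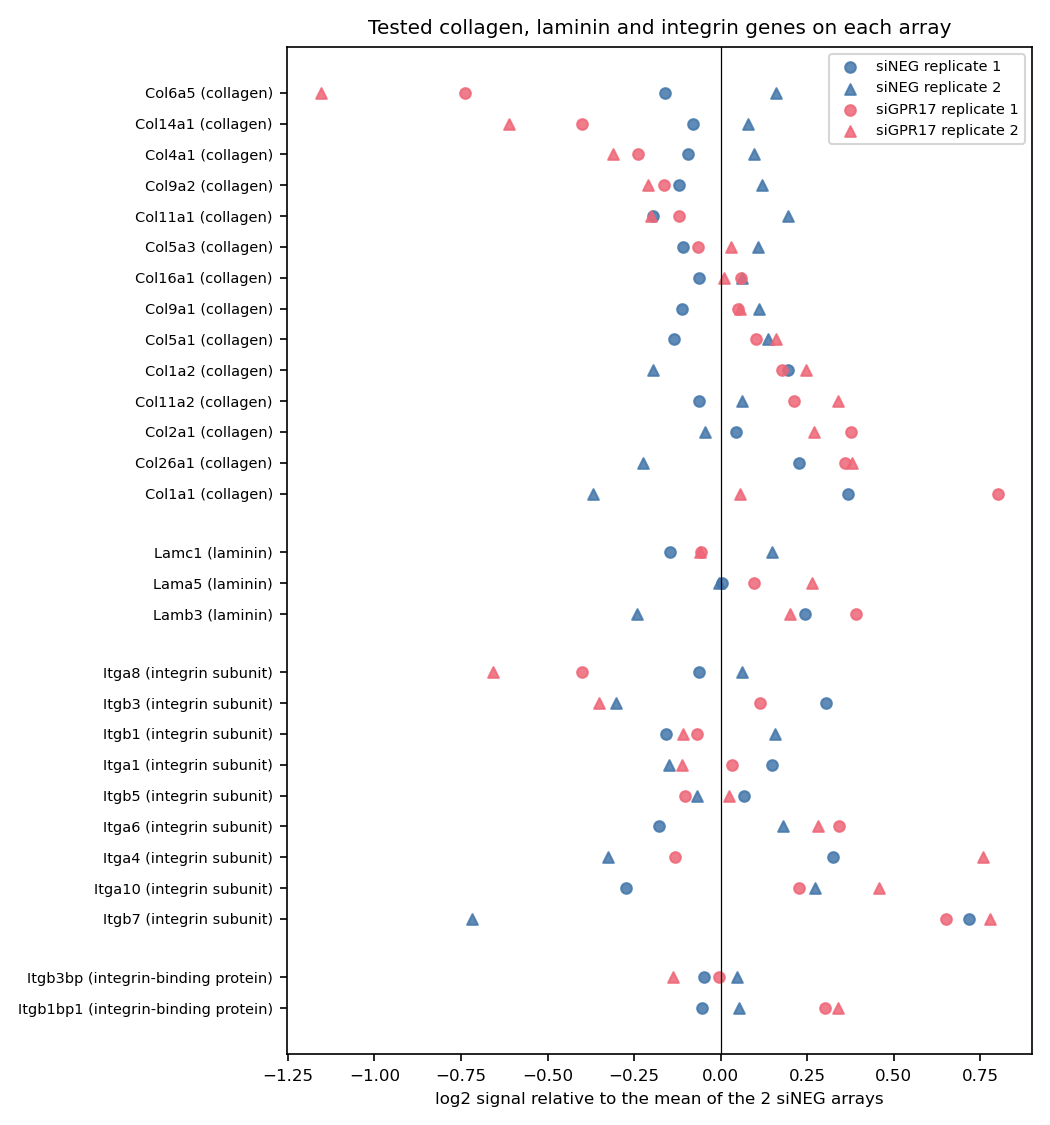
Signal of each tested member on each of the 4 arrays (x axis, log2 relative to the mean of the 2 siNEG arrays), ordered by difference within each family, circles for replicate 1 and triangles for replicate 2. Col6a5, Col14a1 and Itga8 lie to the left in both siGPR17 samples, whereas the siNEG samples of Itgb7 and Col1a1 lie far from each other.

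Of 7 laminin genes with a probe, 3 were tested, an α, a β and a γ chain, the 3 kinds that make up a laminin. Lamc1, the widely used γ1 chain, had signals of 4724 and 5793 in siNEG and of 5027 and 5021 in siGPR17. Both siGPR17 values lay between the siNEG values, and the difference of -0.058 ± 0.13 (adjusted p = 0.848 in limma) became 0.072 with spike-in scaling and 0.089 without siNEG replicate 2. Lama5, the α5 chain, had signals of 96.2 and 95.5 in siNEG and of 102 and 115 in siGPR17, higher on both arrays by 0.18 ± 0.10 (adjusted p = 0.436), a value that was 0.095 without siGPR17 replicate 2 and 0.31 with spike-in scaling. Lamb3, the β3 chain, known from the laminin of skin, had a difference of 0.30 ± 0.20, with signals of 25.1 and 17.9 against 27.8 and 24.4, and it ran from 0.053 when siNEG replicate 2 was left out to 0.54 when replicate 1 was. Lamc3, the γ3 chain, was well above background in siNEG replicate 2 alone and was not tested. The median of the 3 tested laminins was 0.18, a value that Lama5 sets by itself.

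The integrin subunits had a median of -0.039, with 4 higher and 5 lower, and 7 of the 9 had overlapping groups. Of the higher ones, Itga4, Itga10 and Itgb7 were well above background on both siGPR17 arrays but on only 1 siNEG array. With detection required on all 4 arrays, 6 subunits remained, with a median of -0.064. Itgb1, the β1 subunit shared by the laminin and collagen receptors, had signals of 21535 and 26787 in siNEG and of 22911 and 22280 in siGPR17. The difference was -0.088 ± 0.14 (adjusted p = 0.775 in limma) with this probe and -0.041 ± 0.11 with its second probe, and it turned to 0.042 with spike-in scaling and 0.069 without siNEG replicate 2. Itga6, the α6 subunit that pairs with β1 or β4 to bind laminin, had signals of 98.1 and 126 in siNEG and of 141 and 135 in siGPR17. It was higher on both arrays, by 0.31 ± 0.15 (adjusted p = 0.381), a value that was 0.18 with normexp correction, 0.13 when siNEG replicate 1 was left out and 0.49 when replicate 2 was. A second Itga6 probe, with signals of 33.2 and 31.4 in siNEG and of 43.5 and 46.6 in siGPR17, gave 0.48 ± 0.09 (adjusted p = 0.211). Both Itga6 probes thus had groups that did not overlap and the same direction.

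Itga8, the α8 subunit that pairs with β1 and binds the RGD motif of proteins such as nephronectin and fibronectin, was the integrin with the lowest difference. Its signal was 1504 and 1639 in siNEG and 1191 and 997 in siGPR17, lower in both siGPR17 samples. The log2 difference was -0.53 ± 0.13 (adjusted p = 0.228 in limma). It ranged from -0.66 to -0.40 over 15 alternatives, and with the trend and robust options its adjusted p was 0.0527 at a fold under 1.5.

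The collagen-binding subunits Itga1 and Itga10 had differences of -0.04 ± 0.14 and 0.34 ± 0.22 with overlapping groups, and Itga10 stood at 0.07 when siNEG replicate 1 was left out and 0.61 when replicate 2 was. Itgb5 and Itgb3, partners of the αv subunit, had differences of -0.039 ± 0.11 and -0.12 ± 0.28, and with spike-in scaling they turned to 0.091 and 0.011. Itgb3 was also at 0.18 without siNEG replicate 1 and at 0.12 without siGPR17 replicate 2, and Itgb5 at 0.028 without siNEG replicate 1 and 0.025 without siGPR17 replicate 1. Itga4, the α4 subunit, had signals of 25.3 and 16.1 in siNEG and 18.4 and 34.2 in siGPR17. Its difference of 0.31 ± 0.39 became -0.13 without siGPR17 replicate 2, 0.76 without siGPR17 replicate 1 and -0.012 without siNEG replicate 2. Itgb7, the leukocyte β7 subunit, had signals of 19.4 and 7.18 in siNEG and of 18.5 and 20.2 in siGPR17. Its fold beyond 1.5 (0.71 ± 0.51 on the log2 scale, adjusted p = 0.515) rested on 1 low siNEG array: leaving out siNEG replicate 2 gave -0.0024 and leaving out siNEG replicate 1 gave 1.43. Itga7, the α7 laminin-binding subunit, was well above background in siNEG replicate 1 only and was not tested, and neither was Itga5.

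Of the integrin-binding proteins, Itgb1bp1 was higher on both siGPR17 arrays, with signals of 816 and 878 in siNEG and of 1044 and 1071 in siGPR17. The log2 difference was 0.32 ± 0.09 (adjusted p = 0.253 in limma), from 0.27 to 0.45 over 15 alternatives. Itgb3bp, at -0.072 ± 0.10, had overlapping groups, and Itgb1bp2 was not tested.

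The genes that act with the members were taken from 5 lists, and no gene of any list passed the thresholds of a fold of 1.5 and an adjusted p under 0.07 in limma as first fitted. After normexp correction 3 did, and with the trend and robust options 4 did, named here with their lists. Of 25 enzymes and chaperones of collagen biosynthesis and cross-linking, 15 were tested, of which 12 were higher and 3 lower, with a median log2 difference of 0.35. The 12 include Loxl1, which was tested only through its siGPR17 arrays. With detection required on all 4 arrays, 14 were tested, 11 higher and 3 lower, with a median of 0.32. An unadjusted p under 0.05 was found for 8 of the 15 genes, all higher, beside 7.58% of all probes in that direction. By the methods' t-test 5 higher and 1 lower genes had one, beside 13% of all probes in either direction. With the replicate number as a block 7 did, all higher, beside 12% of all probes in either direction. The median of the 15 was 0.31 without siGPR17 replicate 1 and 0.35 without siGPR17 replicate 2. Spike-in scaling gave 15 higher and 0 lower. P4ha2, Plod2 and P3h2 passed the thresholds both with the trend and robust options (1.5% of probes) and after normexp correction (0.864% of probes), and were chosen after their values were seen. P4ha2, a prolyl 4-hydroxylase subunit that helps stabilise the collagen triple helix, had signals of 110 and 80.7 in siNEG and of 246 and 264 in siGPR17, a difference of 1.43 ± 0.18 (adjusted p = 0.209 in limma, 0.0189 with the trend and robust options and 0.0153 after normexp correction). Plod2, a lysyl hydroxylase that prepares collagen for cross-linking, had signals of 1001 and 1090 in siNEG and of 1849 and 1680 in siGPR17 (0.75 ± 0.11, adjusted p = 0.019 after normexp correction). P3h2, a prolyl 3-hydroxylase, had signals of 65.4 and 55.8 in siNEG and of 113 and 135 in siGPR17 (1.04 ± 0.15, adjusted p = 0.0468 after normexp correction). In all 3 genes both siGPR17 values exceeded both siNEG values.

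Loxl1, a lysyl oxidase-like enzyme, was detected above background in siGPR17 alone and was tested only through those 2 arrays. Its signals were 3.97 and 12.4 in siNEG and 21.8 and 19.5 in siGPR17 (adjusted p = 0.305 in limma). With the siNEG arrays set at the higher of the lowest detected signal and the probe's own, the fold was 1.98. This is not a firm bound, because Loxl3 was not detected in siNEG at signals of 16.9 and 19.1. With normexp correction the log2 difference of Loxl1 was 0.32. The lowest value of the list was that of Bmp1, the procollagen C-proteinase, at -0.13 ± 0.08, which was 0.0007 with spike-in scaling. Serpinh1, the collagen chaperone HSP47, had overlapping groups at -0.085 ± 0.11. The list as a whole was thus higher by counts while the tested collagens had a median of 0.044, and the difference between the lists was not tested.

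Other basement membrane and matrix genes went the other way by counts. Of 13 tested, 11 were lower and 2 higher, with a median of -0.28, and 7 of the 13 had an unadjusted p under 0.05, all lower (9.12% of all probes). The latter count was 4 with spike-in scaling, where 16.1% of all probes had such a p in either direction. It was also 4 with the replicate number as a block, beside 1 higher gene, where 12% of all probes had one. The median was -0.24 without siGPR17 replicate 1 and -0.32 without siGPR17 replicate 2. Tnc, tenascin C, had signals of 259 and 264 in siNEG and of 185 and 188 in siGPR17 (-0.49 ± 0.08, adjusted p = 0.209 in limma), and Vcan, the proteoglycan versican, 24619 and 25696 against 19069 and 17334 (-0.47 ± 0.10). Both were chosen after their values were seen. The lowest value was that of Thbs2, thrombospondin 2, at -0.57 ± 0.11, which was -0.12 with normexp correction, and the highest that of Fn1, fibronectin, at 0.46 ± 0.20. Fn1 was well above background on 1 siNEG array, and its value was 0.20 with normexp correction, 0.26 without siGPR17 replicate 1 and 0.29 without siNEG replicate 2.

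Among 13 tested non-integrin receptors for matrix, 9 were lower and 4 higher, with a median of -0.17 that was -0.043 with spike-in scaling and -0.034 with normexp correction. An unadjusted p under 0.05 was found for 4 of the lower and 1 of the higher genes, beside 9.12% and 7.58% of all probes. That count was 0 without siGPR17 replicate 1 (7.27% of all probes in either direction) and 0 without siGPR17 replicate 2 (7.77%). They ran from Adgrg1 (GPR56, an adhesion receptor that binds collagen III) at -0.50 ± 0.14 to Ddr2, a collagen receptor kinase, at 0.38 ± 0.09, which was 0.20 with normexp correction. The 19 tested integrin adaptors and kinases, a list that includes Itgb1bp1, had 10 higher and 9 lower with a median of 0.031, which was 0.16 with spike-in scaling (15 higher, 4 lower) and -0.043 without siNEG replicate 1. Of these, 1 higher and 2 lower genes (3 of 19, 15.8%, beside 16.7% of all probes) had an unadjusted p under 0.05, a count of 0 without siGPR17 replicate 1 and of 1 without siGPR17 replicate 2. Tns3, tensin 3, which links integrin β tails to actin, was the lowest with signals of 101686 and 105427 in siNEG and of 72078 and 74871 in siGPR17 (-0.50 ± 0.09, adjusted p = 0.209 in limma). Of 14 tested proteases and inhibitors, 9 were lower and 5 higher, with a median of -0.20, which was -0.066 with spike-in scaling, and 3 of the lower and 2 of the higher genes had an unadjusted p under 0.05, beside 9.12% and 7.58% of all probes. Without either siGPR17 replicate, 1 lower and 0 higher genes did. Mmp14, a membrane-bound collagenase, had signals of 83.1 and 88.9 in siNEG and of 51.4 and 40.8 in siGPR17, a difference of -0.91 ± 0.15 that was -0.38 with normexp correction. With the trend and robust options its adjusted p was 0.0605. At the other end lay Adam17, a sheddase, at 0.37 ± 0.09.

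**Figure D4:**
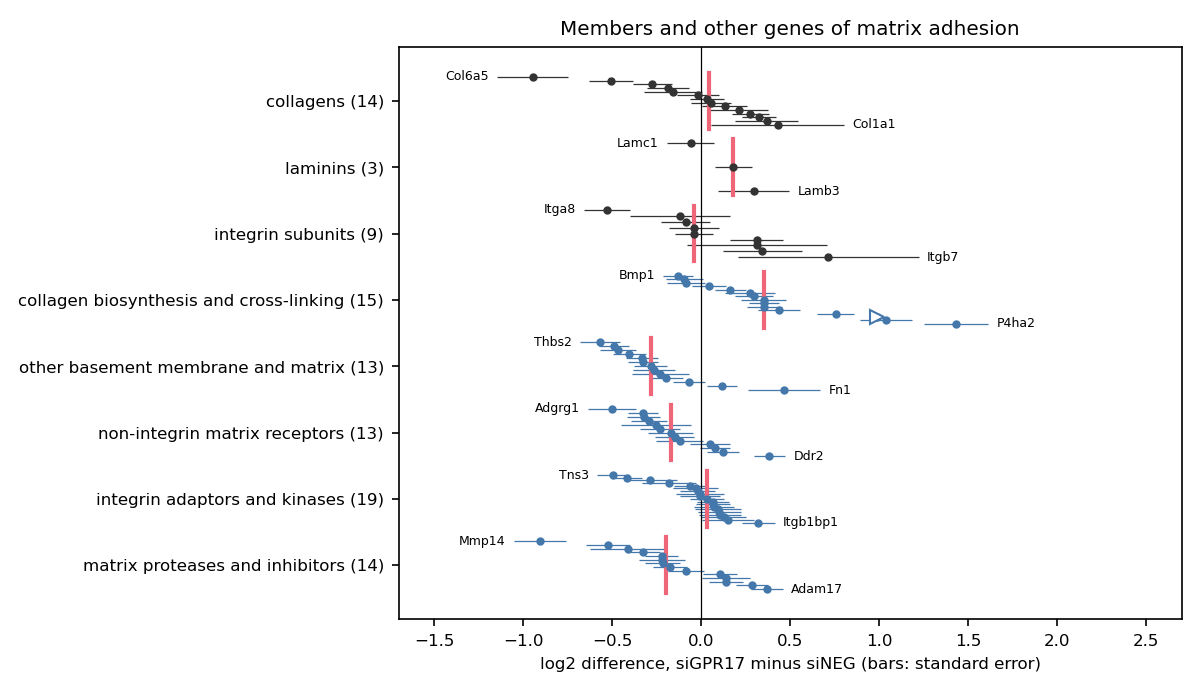
Log2 differences (siGPR17 minus siNEG, x axis) with standard errors for the tested members by family (dark) and for the 5 lists of genes that act with them (blue). The open triangle is for Loxl1, not detected in siNEG, with the siNEG arrays set at the higher of the lowest detected signal and the probe's own. Red bars are list medians, and the gene plotted lowest and highest in each row is named. Collagen biosynthesis has its median at 0.35 and other matrix genes at -0.28, while the 3 families lie at 0.044, 0.18 and -0.039.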

How the data were processed

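RNA of 4 samples, 2 siNEG and 2 siGPR17 as the labels give them, was hybridised to one-colour Agilent rat arrays. The authors deposited scanner output of Agilent Feature Extraction 10.7.3.1, per the submitters' processing notes, and the processed signal intensity deposited for each spot is already background-subtracted by the scanner software. Here log2 of the intensity was taken and averaged over the spots of a probe, without spots flagged as outliers. Each array's 75th percentile was then subtracted. Gene symbols came from a RefSeq gene table, through the RefSeq accession deposited for each probe, and 21093 of 45565 probes received one. Of 78 symbols fitting the rule, 32 had no probe matched in this way. These (Itgav, Itgb8, Itga3, Lama2, Lama4, Lamb1, Col4a2, Col5a2, Col6a1 and Col9a3 among them) were not analysed here, and whether probes without a symbol read them was not checked. Probes well above background on at least 2 arrays were fitted with limma 3.58.1 in R 4.3.3 (lmFit, eBayes, two-sided, Benjamini-Hochberg over 28016 probes), with the study's thresholds. The script was tested on simulated data. Printed signals are on a linear scale, times a common factor of 600, and a gene was read by its brightest tested probe. The members and lists were chosen with earlier results of these data known. Named genes were the 3 highest and 3 lowest of each family, those past a fold of 1.5, a fixed list, and the extremes of each pathway list. Alternatives were normexp (offset 50, on spot medians), quantile, median and spike-in scaling, other filters, a floor, limma's trend and robust options, the t-test of the methods, a replicate block, the median over probes, and leaving out each array. Promoters came from a RefSeq table (GRCr8), and 35 members matched. Depth does not apply to arrays, and their number limits the precision.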

Additional observations from a re-analysis of the deposited data

How the results depend on the processing

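Of the 28 tested members, 0 passed the thresholds under every alternative but the trend and robust options, where 1 did (Col6a5). The count with an unadjusted p under 0.05, 5 in the report, was 2 by the methods' t-test (2 higher, 0 lower), where 13% of all probes had such a p. The 2 higher members became 4 with normexp, quantile or spike-in scaling, where 19.5%, 18.8% and 16.1% of all probes had such a p in either direction. The 3 lower members became 5 without a filter, where all 46 members entered and 10.3% of all probes had such a p in either direction. With the replicate number as a block, 1 was higher and 3 were lower, beside 12% of all probes in either direction. The labels do not say whether the numbers pair samples, but arrays with the same number shared a slide row. Deviations of same-numbered arrays correlated at -0.065, and the block changed no call past the thresholds among the named genes. Spike-in scaling moved the median of all probes to 0.14 from 0.0094, and the collagen, laminin and integrin medians to 0.17, 0.31 and 0.091. The laminin median was 0.12 with normexp and -0.27 without a filter, where undetected laminins enter, and with an array left out the medians ran from -0.043 to 0.076 (collagens), 0.089 to 0.20 (laminins) and -0.012 to 0.11 (integrins).

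Signs turned for 14 of 460 values of named genes, the cause of which was not tested. With spike-in scaling these were Itgb1 (0.042), Itgb3 (0.011), Itgb5 (0.091), Lamc1 (0.072) and Bmp1 (0.0007). With an array left out, the signs of 6 genes turned. Itga4 ran from -0.13 without siGPR17 replicate 2 to 0.76 without siGPR17 replicate 1, Itgb1 from -0.25 without siNEG replicate 1 to 0.069 without siNEG replicate 2, Itgb3 from -0.42 without siNEG replicate 2 to 0.18 without siNEG replicate 1, Itgb5 from -0.11 to 0.028 without the same arrays, Lamc1 from -0.21 without siNEG replicate 1 to 0.089 without siNEG replicate 2, and Itgb7 from -0.0024 without siNEG replicate 2 to 1.43 without siNEG replicate 1. Signal over background limits the dim probes, as for Col14a1, whose difference was -0.0018 with normexp.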
